A study of Homo sapiens with 6 samples.

Results

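The unfolded protein response and the secretory machinery were examined as a set of 50 named genes, out of 23459 gene rows in the count table. The genes were taken by symbol and fall into 6 roles: 3 endoplasmic reticulum (ER) stress sensors, 11 ER chaperones and co-chaperones, 7 oxidative folding enzymes, 9 genes of ER-associated degradation, 15 genes of protein targeting, the translocon and signal peptidase, and 5 secretory genes typical of plasma cells. All 50 had a row. RNA came from Raji cells, an established Burkitt's lymphoma line of germinal centre B cell origin, infected with a lentiviral short hairpin RNA (shRNA). In 3 libraries the hairpin was directed against OBF1 (the clone OBF1sh1), and in 3 it was the non-target control SHC002. Both groups were exposed to virus for 5 days and then kept for 7 days in puromycin at 3 μg/ml, so the control cells also carry an integrated vector and went through selection. The product of POU2AF1, OBF1 assists the Oct transcription factors in B cells. Only 1 hairpin and 1 cell line were used per group, so an effect of this hairpin on other transcripts cannot be told apart from an effect of less OBF1.

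Proteins bound for the cell surface or for secretion enter the ER through the Sec61 channel, lose their signal peptide, and are folded there by chaperones and disulfide isomerases. When unfolded chains pile up, the membrane sensors IRE1 (ERN1), PERK (EIF2AK3) and ATF6 start the unfolded protein response. IRE1 splices the XBP1 messenger, PERK phosphorylates eIF2α and thereby favours translation of ATF4, and ATF6 is cut in the Golgi to release a transcription factor. Their targets include the chaperones, the degradation machinery that returns misfolded chains to the proteasome, and, in B cells that become plasma cells, much of the machinery for antibody secretion.

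Library totals lay between 29569281 and 32612429 counts, with 14574 to 15062 genes detected. Levels are given as normalised CPM, the read count relative to a library size corrected for composition with the TMM method. The targeted transcript POU2AF1 stood at 244, 241 and 241 CPM in OBF1 shRNA libraries, against 512, 516 and 512 CPM in control libraries. It was 2.12-fold lower by edgeR's quasi-likelihood test (log2 fold change -1.09, SE 0.02, adjusted p = 1.25e-17). All 10 B cell markers on a list were tested, and their summed level was 5103 to 5154 CPM in OBF1 shRNA libraries and 3332 to 3387 CPM in control libraries. At an adjusted p under 0.05 in the same test, 6 markers were higher and 4 lower, where 75.4% of all tested genes passed. MS4A1 averaged 2078 CPM with OBF1 shRNA and 702 CPM with control shRNA, and CR2 655 and 226 CPM. By contrast, CD38, MME and BCL6 were 2.95-fold, 2.11-fold and 1.87-fold lower. Markers of myeloid cells summed to 3.31 to 3.71 CPM in OBF1 shRNA libraries and 3.45 to 3.59 CPM in control libraries, with S100A9 and MPO at 0. Markers of T and natural killer cells summed to 0.879 to 1.02 CPM in OBF1 shRNA libraries and 0.192 to 0.268 CPM in control libraries, with CD3D, CD2 and GNLY at 0. Markers of the 293T packaging cells stayed at or below 0.128 CPM in OBF1 shRNA libraries and at or below 0.506 CPM in control libraries. Whether the libraries of each group stem from separate cultures is not stated, so every p-value here rests on a spread between libraries that may be technical. In such bulk RNA, fewer cells making a transcript and less of it per cell cannot be told apart.

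Within the set, the stress sensors and the degradation genes other than DERL3 were lower in OBF1 shRNA cells, while ER chaperones and co-chaperones were split between higher and lower. The chaperone changes ran from 1.91-fold lower (DNAJB9) to 1.49-fold higher (SDF2L1). The filter on low counts kept 49 of the 50 members. ELL2, an elongation factor used in antibody secretion by plasma cells, did not pass: it had 1 count in 1 OBF1 shRNA library and 1 count in 1 control library. Of the 49, 41 were called (adjusted p under 0.05 in edgeR's quasi-likelihood test over 12010 genes, with the Benjamini-Hochberg method), or 83.7%, where 75.4% of all tested genes were called. By direction, 14 members were higher (28.6%, against 37.5% of all tested genes) and 27 lower (55.1%, against 37.9%), and 8 were not called. Only 7 members, or 14.3%, were called with a change of at least 1.5-fold, where 23.3% of all tested genes were. Those 7 were ERN1, EIF2AK3, DNAJB9, EDEM1, SEL1L and SEC63, all lower, and ERO1B, which was higher. The libraries of the groups did not overlap for 42 members, or 85.7%, against 76.6% of all tested genes. The median log2 fold change was -0.14 over the 49 members and -0.01 over all tested genes. Summed over the set, the level was 9551 ± 33.2 CPM in OBF1 shRNA libraries and 10367 ± 101 CPM in control libraries (SD, n = 3 each), a ratio of 0.921. Scaling mattered for the small changes: with library sizes alone, which shifted all log2 fold changes by -0.11, 9 members were called higher and 34 lower.

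**Figure D1:**
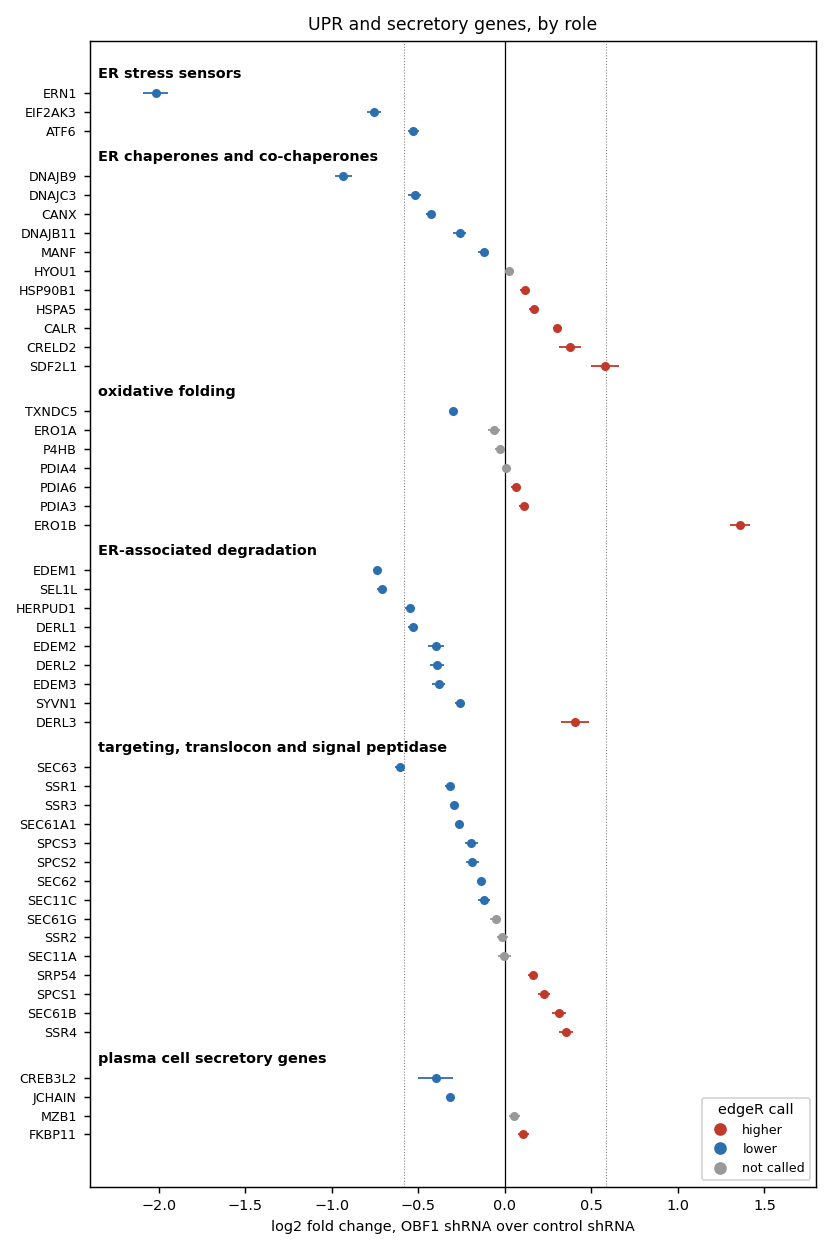
Log2 fold change of OBF1 shRNA over control shRNA for the 49 tested genes, grouped by role, with bars for the standard error and dotted lines at 1.5-fold. Colours give the edgeR call at an adjusted p under 0.05; the sensors and all degradation genes but DERL3 lie left of 0, and ERO1B lies farthest to the right at 1.36.

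Chaperone promoters are the textbook site of the ER stress element (ERSE), the sequence through which ATF6 and XBP1 act, so promoter letters were searched for all members before the values are given by role. RefSeq promoter windows of assembly GRCh38.p14, from 250 bases before to 50 after a gene's start, were at hand for 45 of the 50 members, with 57 windows in all. Those not searched were DERL1, DERL3, ELL2, PDIA3 and SPCS1. The ERSE letters (CCAAT, 9 bases, CCACG, or their reverse complement CGTGG, 9 bases, ATTGG) were present in 7 of the 45 members, or 15.6%, against 17 of 9514 tested genes with a window (0.179%) and 0.0916% of all 27305 genes in the table, counts that include the members. The 7 were HSPA5, HSP90B1, CALR, CANX, CRELD2, PDIA6 and ERO1B. As chaperone promoters are the textbook site of these letters, the high share follows in part from the choice of genes. It is no result of these libraries. The related ERSE-II letters (ATTGG, 1 base, CCACG, either strand) were found in HYOU1, SDF2L1 and HERPUD1, which is 6.67% of members, against 0.158% of tested genes and 0.0696% of all. The following windows are shown because their genes cover both directions of change. The first 3 were higher in OBF1 shRNA cells, CANX was lower, ERO1B had the strongest increase in the set, and HERPUD1 was lower. Each is written 5′ to 3′ on the strand of the gene, and capitals mark the ERSE or ERSE-II match.
HSPA5: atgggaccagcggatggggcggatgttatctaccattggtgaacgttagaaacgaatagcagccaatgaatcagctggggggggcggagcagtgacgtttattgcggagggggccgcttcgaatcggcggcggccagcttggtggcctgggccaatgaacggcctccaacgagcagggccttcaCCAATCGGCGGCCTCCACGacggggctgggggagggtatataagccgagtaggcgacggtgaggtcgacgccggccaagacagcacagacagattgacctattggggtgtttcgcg
CRELD2: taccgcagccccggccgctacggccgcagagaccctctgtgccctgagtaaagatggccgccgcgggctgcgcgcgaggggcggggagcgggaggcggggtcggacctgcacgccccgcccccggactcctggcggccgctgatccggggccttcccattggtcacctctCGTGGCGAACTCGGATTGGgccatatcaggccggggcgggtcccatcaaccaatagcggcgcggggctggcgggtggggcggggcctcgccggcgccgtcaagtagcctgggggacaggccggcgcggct
SDF2L1: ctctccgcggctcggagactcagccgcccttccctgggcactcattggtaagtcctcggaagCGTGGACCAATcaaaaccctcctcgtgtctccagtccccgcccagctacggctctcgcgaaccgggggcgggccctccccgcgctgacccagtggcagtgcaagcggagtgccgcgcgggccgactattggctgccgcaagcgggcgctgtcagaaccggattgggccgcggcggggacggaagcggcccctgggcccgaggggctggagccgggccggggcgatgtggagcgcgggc
CANX: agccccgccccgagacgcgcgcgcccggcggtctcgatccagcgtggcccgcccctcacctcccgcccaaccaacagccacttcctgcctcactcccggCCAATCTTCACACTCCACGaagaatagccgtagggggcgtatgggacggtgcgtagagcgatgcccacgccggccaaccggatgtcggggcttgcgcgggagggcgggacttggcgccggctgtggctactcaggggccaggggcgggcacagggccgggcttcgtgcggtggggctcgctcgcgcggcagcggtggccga
ERO1B: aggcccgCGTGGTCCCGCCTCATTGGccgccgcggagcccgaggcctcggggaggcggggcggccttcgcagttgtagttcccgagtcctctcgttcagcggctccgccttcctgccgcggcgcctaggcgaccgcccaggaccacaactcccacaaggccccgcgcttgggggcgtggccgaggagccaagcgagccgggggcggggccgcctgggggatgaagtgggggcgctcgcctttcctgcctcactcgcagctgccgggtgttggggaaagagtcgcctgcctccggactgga
HERPUD1: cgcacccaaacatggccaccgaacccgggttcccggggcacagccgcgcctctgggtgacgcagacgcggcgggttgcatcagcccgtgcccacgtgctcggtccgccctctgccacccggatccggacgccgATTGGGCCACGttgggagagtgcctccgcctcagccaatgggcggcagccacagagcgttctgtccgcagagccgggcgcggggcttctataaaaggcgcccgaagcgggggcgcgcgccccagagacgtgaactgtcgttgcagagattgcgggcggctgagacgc
HSPA5 is at chr9:125241294-125241593 (minus strand), CRELD2 at chr22:49918384-49918683 (plus), SDF2L1 at chr22:21642052-21642351 (plus), CANX at chr5:179698679-179698978 (plus), ERO1B at chr1:236281909-236282208 (minus) and HERPUD1 at chr16:56931892-56932191 (plus). Counted from the gene's start, the first base of the match lies at -66 in HSPA5, -80 in CRELD2, -188 in SDF2L1, -151 in CANX, -243 in ERO1B and -117 in HERPUD1. The CANX match falls in all 3 windows the table holds for that gene.

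Members with these letters and members without them differed in how their calls were spread, a split made after the values had been seen and given as a description. Of the 10 members with ERSE or ERSE-II letters, 7 were higher, CANX and HERPUD1 were lower and HYOU1 was not called, with a median log2 fold change of 0.14. Of the 35 searched members with neither, 4 were higher, 24 lower and 7 not called, with a median of -0.26. With library sizes alone, HSP90B1 (0.0048) and PDIA6 (-0.0476) were no longer called and HYOU1 was called lower (-0.0849). Among members with neither, SRP54 and FKBP11 then lost their calls, and PDIA4, P4HB, ERO1A, SEC61G, SSR2 and SEC11A were called lower. The median of 0.14 is about the size of the -0.11 shift between scalings. Among tested genes outside the set, calls with the element were more often lower than higher, and the difference from the members was not tested: the 22 with either element had 6 higher, 9 lower and 7 not called (median 0.02), and the 9447 with neither had 3641 higher, 3587 lower and 2219 not called (median -0.00). A UPRE core (TGACGTGG, either strand) occurred in SSR3, SEC62, TXNDC5, HYOU1 and SSR4, or 11.1% of members against 1.19% of tested genes. In HYOU1 it overlaps the first of 2 ERSE-II matches. The CARE letters bound by ATF4 and CHOP dimers (TGATGNAAN, either strand) occurred in CREB3L2 and HERPUD1, 4.44% of members against 2.63% of tested genes. The octamer ATGCAAAT, the binding sequence of the Oct factors with OBF1, was in 0 member windows and in 1.93% of those of tested genes, which says only that these letters are not in the windows searched. A match is a stretch of letters and was not tested as a binding site.

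**Figure D2:**
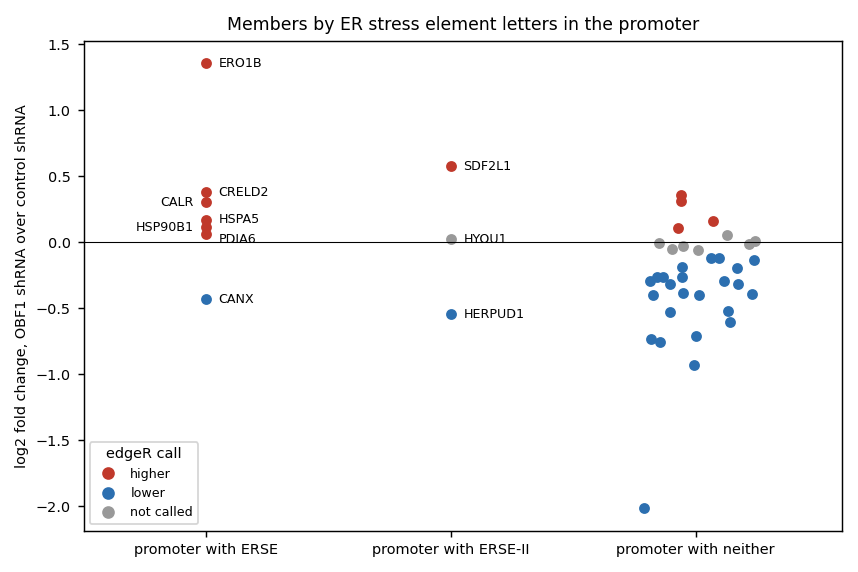
Log2 fold change of OBF1 shRNA over control shRNA for the 45 members with a promoter window, split by whether the window holds ERSE letters, ERSE-II letters or neither (points are spread sideways for view in the last column). Of the 10 points in the first 2 columns, 7 are called higher; of the 35 in the last, 24 are called lower.

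All 3 sensors fell, where 37.9% of all tested genes were called lower. ERN1, the kinase and RNase that splices XBP1, read 8.51, 7.05 and 7.47 CPM in OBF1 shRNA libraries, against 33.3, 30.3 and 29.5 CPM in control libraries. No OBF1 shRNA library came near a control library. ERN1 was 4.05-fold lower (log2 fold change -2.02, SE 0.07, edgeR adjusted p = 1.67e-14), the strongest decrease among the 49 tested members. EIF2AK3, which encodes PERK, the kinase of eIF2α, read 64.7, 71.5 and 63.9 CPM with OBF1 shRNA, against 109.6, 115 and 113 CPM with control shRNA. The groups did not overlap, and the transcript was 1.69-fold lower (log2 fold change -0.76, SE 0.04, edgeR adjusted p = 5.93e-12). ATF6, the sensor that is itself a membrane-bound transcription factor, read 74.8, 78.2 and 76.9 CPM in OBF1 shRNA cells, against 110.4, 110.0 and 112 CPM in control cells. Again the groups were apart, at 1.44-fold lower (log2 fold change -0.53, SE 0.03, edgeR adjusted p = 3.03e-11). Per kilobase of gene length, the order of the sensors was PERK, ATF6 and IRE1 in both groups: 14.3 ± 0.891, 7.52 ± 0.172 and 1.92 ± 0.188 CPM per kb in OBF1 shRNA libraries, against 24.3 ± 0.637, 10.9 ± 0.0766 and 7.75 ± 0.493 CPM per kb in control libraries (SD, n = 3 each). In sum the sensors made 151 ± 4.98 CPM in OBF1 shRNA libraries and 255 ± 1.24 CPM in control libraries (SD, n = 3 each).

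XBP1 and ATF4, the transcription factor genes downstream of IRE1 and PERK, were also lower. XBP1, whose spliced form drives secretory genes, read 108, 105 and 104 CPM in OBF1 shRNA libraries, against 241, 239 and 238 CPM in control libraries. Every OBF1 shRNA value lay below every control value, and the gene was 2.27-fold lower (log2 fold change -1.18, SE 0.03, edgeR adjusted p = 2.2e-17). Counts per gene do not separate spliced from unspliced XBP1. ATF4, translated when eIF2α is phosphorylated, read 426, 429.5 and 437 CPM with OBF1 shRNA, against 839, 878 and 846 CPM with control shRNA. The ranges were far apart, at 1.98-fold lower (log2 fold change -0.99, SE 0.03, edgeR adjusted p = 1.35e-16). On a list of 17 other regulators and effectors, 14 were tested, with a median log2 fold change of -0.21. RTCB, the ligase that joins the XBP1 exons, was higher, 7 were lower and 6 were not called. Calls made up 57.1% of the 14, against 75.4% of all tested genes. Lower calls were 50.0% against 37.9%, and higher calls 7.1% against 37.5%. CHAC1, a glutathione-degrading enzyme, averaged 8.90 ± 0.783 CPM in OBF1 shRNA libraries and 54.8 ± 2.29 CPM in control libraries (SD, n = 3 each), 6.17-fold lower. DDIT3, encoding the stress factor CHOP, averaged 12.1 ± 0.474 CPM in OBF1 shRNA libraries and 54.3 ± 2.25 CPM in control libraries (SD, n = 3 each), 4.49-fold lower. TRAF2, an adaptor of IRE1 signalling, and the eIF2α phosphatase subunits PPP1R15A and PPP1R15B completed the 7, with log2 fold changes of -0.77, -0.58 and -0.30. Those not called included the proteases that cleave ATF6, MBTPS1 (log2 fold change 0.03) and MBTPS2 (-0.05), the ATF6 paralog ATF6B (0.00), and EIF2S1, the eIF2α subunit itself (-0.01). ATF3, TRIB3 and BHLHA15 did not pass the filter, and TRIB3 and BHLHA15 had 0 counts in all 6 libraries.

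**Figure D3:**
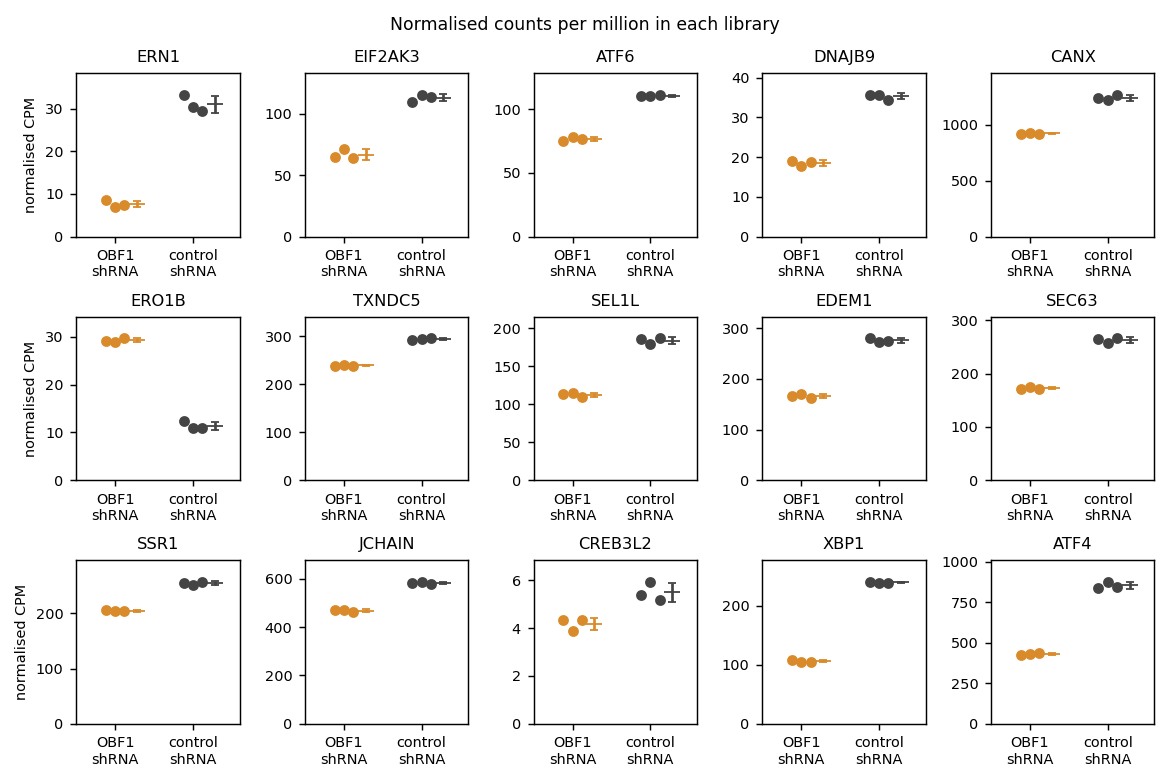
Normalised CPM in each library for 13 of the 50 genes and for XBP1 and ATF4, with OBF1 shRNA at the left (orange) and control shRNA at the right (grey); points are libraries, and the bar beside them is the mean with its SD (n = 3). Every axis starts at 0; among the 15 genes drawn, ERO1B alone has its OBF1 shRNA libraries above the control libraries, at 29.0 to 29.7 against 10.9 to 12.4 CPM, while HSPA5, CALR, SDF2L1 and DERL3, which were higher too, are not drawn.

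Chaperones and co-chaperones were divided, with 5 of 11 higher, 5 lower and HYOU1 not called. That is 45.5% in each direction, against 37.5% higher and 37.9% lower among all tested genes. Their median log2 fold change was 0.02, and their summed level was 3900 ± 39.3 CPM in OBF1 shRNA libraries and 3955 ± 55.9 CPM in control libraries (SD, n = 3 each). DNAJB9, a J-domain co-chaperone that binds IRE1 and is among its best known target genes, read 18.9, 17.6 and 18.8 CPM in OBF1 shRNA libraries, against 35.7, 35.7 and 34.4 CPM in control libraries. The groups stood well apart, and the gene was 1.91-fold lower (log2 fold change -0.93, SE 0.05, edgeR adjusted p = 5.03e-12). CANX, the membrane-bound lectin chaperone calnexin, read 918, 928 and 919 CPM with OBF1 shRNA, against 1238, 1219 and 1270.1 CPM with control shRNA. The 2 groups did not overlap and the transcript was 1.35-fold lower (log2 fold change -0.43, SE 0.02, edgeR adjusted p = 1.39e-11). Its soluble relative calreticulin, CALR, went the other way: 934, 937 and 943 CPM in OBF1 shRNA libraries, against 747, 786 and 747 CPM in control libraries. CALR was 1.23-fold higher with no overlap (log2 fold change 0.30, SE 0.03, edgeR adjusted p = 4.66e-09). HSPA5, the abundant Hsp70 chaperone BiP that also holds the sensors inactive, read 749, 780.2 and 783 CPM in OBF1 shRNA libraries, against 666, 706 and 685 CPM in control libraries. BiP thus differed by 1.12-fold (log2 fold change 0.17, SE 0.03, edgeR adjusted p = 1.98e-05), a small but non-overlapping difference.

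The remaining chaperones changed by less than 1.5-fold. SDF2L1, a partner of BiP, lay just inside that limit at 1.49-fold higher, with 29.6, 27.0 and 31.3 CPM in OBF1 shRNA libraries, against 19.9, 22.4 and 16.5 CPM in control libraries. Its replicates were wide but did not overlap (log2 fold change 0.58, SE 0.08, edgeR adjusted p = 4e-06). CRELD2, a small ER stress-induced protein, was 1.30-fold higher at 20.5 ± 0.839 CPM in OBF1 shRNA libraries and 15.8 ± 1.21 CPM in control libraries (SD, n = 3 each). The Hsp90 of the ER, HSP90B1, was 1.08-fold higher (log2 fold change 0.11, edgeR adjusted p = 0.000883), but with library sizes alone it was at 0.00 and not called. Lower were DNAJC3, the J-domain protein that also inhibits PERK (1.43-fold), DNAJB11, a BiP co-chaperone (1.20-fold), and the secreted stress protein MANF (1.09-fold). HYOU1, the nucleotide exchange factor of BiP, averaged 354 ± 7.05 CPM in OBF1 shRNA libraries and 348 ± 7.38 CPM in control libraries (SD, n = 3 each) and was not called (edgeR adjusted p = 0.405).

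Oxidative folding was the role with the lowest share of called genes, 4 of 7 or 57.1%, against 75.4% of all tested genes. Its median log2 fold change was 0.01. ERO1B, an oxidase that recharges disulfide isomerases, read 29.1, 29.0 and 29.7 CPM in OBF1 shRNA libraries, against 12.4, 11.0 and 10.9 CPM in control libraries. Each OBF1 shRNA library held more than any control library, and the gene was 2.56-fold higher (log2 fold change 1.36, SE 0.06, edgeR adjusted p = 3.18e-13). The other oxidase, ERO1A, averaged 72.2 ± 2.53 CPM with OBF1 shRNA and 75.4 ± 1.39 CPM with control shRNA (SD, n = 3 each), with overlapping libraries, and was not called (edgeR adjusted p = 0.125). Per length, the ratio of ERO1B to ERO1A was 0.251 ± 0.0126 in OBF1 shRNA libraries and 0.0939 ± 0.00644 in control libraries (SD, n = 3 each), so ERO1A remained the more abundant oxidase. TXNDC5, a thioredoxin-domain isomerase, read 239, 241 and 239 CPM in OBF1 shRNA libraries, against 293, 295 and 297 CPM in control libraries. It was 1.23-fold lower without overlap (log2 fold change -0.30, SE 0.02, edgeR adjusted p = 2.76e-09). The readthrough gene BLOC1S5-TXNDC5 spans the same exons and had 1.01 times the counts of TXNDC5 with the same log2 fold change of -0.30, so these rows cannot be told apart.

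Among the other isomerases, changes were small. P4HB, the founding protein disulfide isomerase, averaged 403 ± 8.78 CPM in OBF1 shRNA libraries and 412 ± 9.56 CPM in control libraries (SD, n = 3 each), and was not called (edgeR adjusted p = 0.285). PDIA4 averaged 322 ± 5.19 CPM in OBF1 shRNA libraries and 320.4 ± 6.77 CPM in control libraries (SD, n = 3 each) and was not called either (edgeR adjusted p = 0.813). PDIA3, which works with calnexin and calreticulin on glycoproteins, was 1.08-fold higher (log2 fold change 0.11, edgeR adjusted p = 0.00189). With library sizes alone it stood at 0.00 and was not called. PDIA3 overlaps ELL3, which had 0.212 times its counts and was also higher (log2 fold change 0.43). PDIA6 was 1.04-fold higher (log2 fold change 0.06, edgeR adjusted p = 0.0293). That call was lost with upper-quartile factors (edgeR adjusted p = 0.114), without control replicate 1 (0.118) and without OBF1 shRNA replicate 3 (0.0989), and the sign turned with library sizes alone. Over the 7 enzymes the summed level was 1973 ± 17.9 CPM in OBF1 shRNA libraries and 1969 ± 32.6 CPM in control libraries (SD, n = 3 each).

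ER-associated degradation fell almost as a block: 8 of 9 genes were lower and DERL3 was higher, with a median log2 fold change of -0.40. Lower calls were thus 88.9%, against 37.9% of all tested genes, and higher calls 11.1%, against 37.5%. The sum was 828 ± 9.14 CPM in OBF1 shRNA libraries and 1175 ± 7.36 CPM in control libraries (SD, n = 3 each), a ratio of 0.705. EDEM1, a mannosidase-like protein that marks glycoproteins for disposal, read 166, 169 and 162 CPM in OBF1 shRNA libraries, against 281, 273 and 275 CPM in control libraries. The groups were separate, and EDEM1 was 1.67-fold lower (log2 fold change -0.74, SE 0.03, edgeR adjusted p = 2.44e-14). SEL1L, the scaffold of the membrane ubiquitin ligase complex, read 113, 115 and 109 CPM with OBF1 shRNA, against 186, 179 and 187 CPM with control shRNA. Here too no libraries overlapped, at 1.63-fold lower (log2 fold change -0.71, SE 0.03, edgeR adjusted p = 2.16e-13). The ligase itself, SYVN1 (also called HRD1), was only 1.20-fold lower, at 227 ± 3.25 CPM in OBF1 shRNA libraries and 272 ± 2.53 CPM in control libraries (SD, n = 3 each). HERPUD1, which organises the same complex and is induced by ER stress, was 1.46-fold lower, at 102 ± 0.76 CPM with OBF1 shRNA and 149 ± 2.40 CPM with control shRNA (SD, n = 3 each).

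The related EDEM genes were all lower, whereas the Derlins did not all move together. EDEM2 and EDEM3 were 1.32-fold and 1.30-fold lower. Among the Derlins, membrane proteins of the exit channel, DERL1 and DERL2 were 1.44-fold and 1.31-fold lower. DERL2 overlaps MIS12, which had 1.54 times its counts and was also lower (log2 fold change -0.26). DERL3, the family member associated with secretory cells, read 15.2, 13.0 and 13.6 CPM in OBF1 shRNA libraries, against 11.6, 10.1 and 9.87 CPM in control libraries. DERL3 was therefore 1.32-fold higher with no overlap (log2 fold change 0.40, SE 0.08, edgeR adjusted p = 0.000163). Its span overlaps SMARCB1, which had 8.29 times as many counts and a log2 fold change of -0.01. Per length, DERL3 stood to DERL1 at 0.286 ± 0.0263 in OBF1 shRNA libraries and 0.149 ± 0.0125 in control libraries (SD, n = 3 each). On a list of 16 other degradation genes, all tested, 2 were higher, 10 lower and 4 not called, with a median log2 fold change of -0.14. Lower calls were 62.5% and higher calls 12.5%, against 37.9% and 37.5% of all tested genes. The median of this list is about the size of the -0.11 shift between scalings, and nothing particular to the list is read from it. Lower were AUP1, a lipid droplet protein that recruits the ubiquitin-conjugating enzyme UBE2G2 (1.33-fold), FAF2, which docks the VCP extractor ATPase (1.46-fold), and SELENOS, a selenoprotein of the exit complex (1.36-fold). UBE2G2 was 1.26-fold higher, and VCP was the other higher gene at 1.14-fold.

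**Figure D4:**
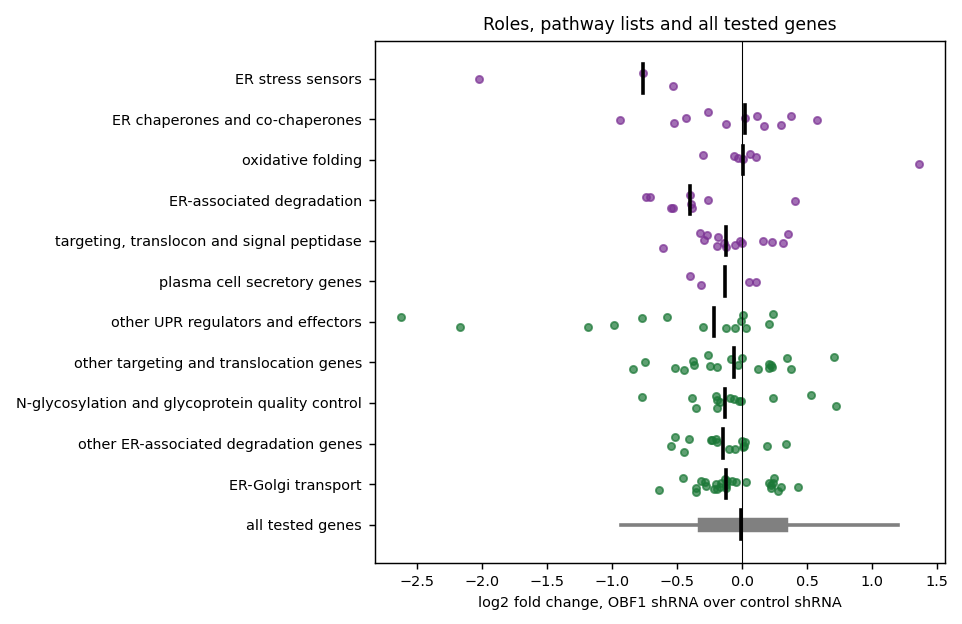
Log2 fold change of OBF1 shRNA over control shRNA for each tested gene of the 6 roles (purple) and the 5 wider pathway lists (green), with black bars at the medians. For all tested genes the thick bar spans the middle from the 25th to the 75th percentile (-0.29 to 0.30) and the thin line the 5th to 95th (-0.93 to 1.20); the medians of the sensors (-0.76) and of ER-associated degradation (-0.40) lie left of that middle range.

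Targeting, translocon and signal peptidase genes showed small changes with both signs inside single complexes. Of 15, 4 were higher, 8 lower and 3 not called, with a median log2 fold change of -0.12. Higher calls were 26.7% and lower calls 53.3%, against 37.5% and 37.9% of all tested genes. SEC63, a J-domain partner of the Sec61 channel, read 171, 174 and 172 CPM in OBF1 shRNA libraries, against 265, 257 and 267 CPM in control libraries. The groups did not overlap and SEC63 was 1.52-fold lower (log2 fold change -0.61, SE 0.03, edgeR adjusted p = 2.86e-13), just past the 1.5-fold limit. SSR1, the alpha subunit of the translocon-associated complex TRAP, read 206, 204 and 204 CPM with OBF1 shRNA, against 256, 252 and 258 CPM with control shRNA. It was lower, again without overlap (log2 fold change -0.32, SE 0.02, edgeR adjusted p = 1.58e-09). Within TRAP, SSR3 was 1.23-fold lower, SSR2 was not called (log2 fold change -0.02) and SSR4 was 1.28-fold higher at 97.3 ± 3.14 CPM in OBF1 shRNA libraries and 76.1 ± 4.15 CPM in control libraries (SD, n = 3 each). SSR4 overlaps IDH3G, which had 0.451 times its counts and a log2 fold change of 0.69.

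In the channel itself, the pore subunit SEC61A1 was 1.20-fold lower, the beta subunit SEC61B was 1.24-fold higher and the gamma subunit SEC61G was not called (log2 fold change -0.05, edgeR adjusted p = 0.156). SEC62, the partner of SEC63, was 1.10-fold lower. SRP54, the GTPase of the signal recognition particle, was 1.12-fold higher (edgeR adjusted p = 9.64e-05), but was not called with library sizes alone (log2 fold change 0.05). The signal peptidase split likewise: SPCS1 was 1.17-fold higher, SPCS2 and SPCS3 were both 1.14-fold lower, the catalytic SEC11C was 1.09-fold lower and its paralog SEC11A was not called (log2 fold change -0.00). Ratios between subunits do not depend on library scaling. Per length, SEC61B to SEC61A1 was 3.04 ± 0.0651 in OBF1 shRNA libraries and 2.04 ± 0.113 in control libraries (SD, n = 3 each). SSR4 to SSR1 was 3.93 ± 0.143 in OBF1 shRNA libraries and 2.46 ± 0.165 in control libraries, and SPCS1 to SPCS3 was 2.75 ± 0.191 in OBF1 shRNA libraries and 2.05 ± 0.155 in control libraries (SD, n = 3 each). SEC11C to SEC11A went the other way, at 0.634 ± 0.0130 in OBF1 shRNA libraries and 0.689 ± 0.0219 in control libraries (SD, n = 3 each). For each of the 8 pairs of subunits or paralogs compared, the groups did not overlap. The 2-sided exact permutation p was 0.1 for each, the smallest that 3 libraries against 3 allow. SEC61B to SEC61A1, SSR4 to SSR1 and SPCS1 to SPCS3 each set a gene called higher against one called lower. So did DERL3 to DERL1, DERL3 to DERL2, and the second pore subunit gene SEC61A2 to SEC61A1. The separation of all these pairs restates those calls and is no further support. ERO1B to ERO1A and SEC11C to SEC11A each set a called gene against one not called, and are likewise no further support.

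Of 20 other targeting and translocation genes, 8 were higher, 10 lower and 2 not called, with a median log2 fold change of -0.06. Higher calls were 40.0% and lower calls 50.0%, against 37.5% and 37.9% of all tested genes. The median is smaller in size than the -0.11 shift between scalings, and nothing particular to this list is read from it. The translocon helpers TRAM1 and TRAM2 were 1.68-fold and 1.78-fold lower, and SRPRB, a subunit of the signal recognition particle receptor, was 1.37-fold lower, whereas its partner SRPRA was 1.17-fold higher. EMC7, of the ER membrane insertion complex, was 1.43-fold lower. SEC61A2, the second pore subunit gene, was 1.63-fold higher at 18.9 ± 0.659 CPM in OBF1 shRNA libraries and 11.6 ± 0.313 CPM in control libraries (SD, n = 3 each), chosen for mention after its value was seen. Its ratio to SEC61A1 per length was 0.0738 ± 0.00268 in OBF1 shRNA libraries and 0.0376 ± 0.00116 in control libraries (SD, n = 3 each), so it was the minor form in both groups.

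Glycosylation and vesicle transport accompany folding and follow it, and the genes of both lists changed in both directions. Of 14 tested genes of N-glycosylation and glycoprotein quality control (16 listed), 3 were higher, 9 lower and 2 not called, with a median log2 fold change of -0.13. Among them STT3A, a catalytic subunit of the oligosaccharyltransferase, was 1.31-fold lower, and OST4, the smallest subunit of that enzyme, was 1.65-fold higher. MAN1B1, a mannosidase that trims glycans before degradation, was 1.70-fold lower, and the first glucosidase MOGS was 1.44-fold higher. Of 27 tested genes of ER-Golgi transport (28 listed), 8 were higher, 16 lower and 3 not called, with a median of -0.12. SEC16A, the scaffold of ER exit sites, was 1.56-fold lower, the cargo receptor LMAN1 was 1.37-fold lower, and the COPI coat subunit COPA was 1.28-fold lower. SEC23B, a coat subunit of COPII, was 1.35-fold higher. Lower calls made up 64.3% of the tested glycosylation genes and 59.3% of the transport genes, against 37.9% of all tested genes, and higher calls 21.4% and 29.6%, against 37.5%. Both medians are about the size of the -0.11 shift between scalings, and nothing particular to these lists is read from them.

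Secretory genes typical of plasma cells were expressed in Raji cells with the exception of ELL2, and their changes were small. JCHAIN, which joins IgM and IgA into polymers, read 469, 472 and 462 CPM in OBF1 shRNA libraries, against 581, 588 and 579 CPM in control libraries. It was lower, with the groups apart (log2 fold change -0.32, SE 0.02, edgeR adjusted p = 7.46e-10). CREB3L2, a membrane-bound transcription factor of the ATF6 type that supports secretion, read 4.33, 3.87 and 4.34 CPM with OBF1 shRNA, against 5.41, 5.95 and 5.17 CPM with control shRNA. At this low level it was 1.32-fold lower and the libraries still did not overlap (log2 fold change -0.40, SE 0.10, edgeR adjusted p = 0.00174). MZB1, a BiP-associated chaperone of immunoglobulin assembly, averaged 148 ± 3.80 CPM in OBF1 shRNA libraries and 142 ± 4.49 CPM in control libraries (SD, n = 3 each) and was not called (edgeR adjusted p = 0.126). FKBP11, a prolyl isomerase of secretory cells, was called 1.08-fold higher (edgeR adjusted p = 0.00465) and was at -0.00 with library sizes alone, where it was not called. FKBP11 overlaps ARF3, which had 3.45 times its counts and a log2 fold change of 0.64. Per kilobase, JCHAIN was the most abundant of these genes in both groups, at 321 ± 3.46 CPM per kb in OBF1 shRNA libraries and 399.9 ± 3.21 CPM per kb in control libraries (SD, n = 3 each).

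Compared per kilobase of gene length, the members spanned levels between CREB3L2, the lowest tested member, at 0.491 ± 0.0314 CPM per kb in OBF1 shRNA libraries and 0.648 ± 0.0469 CPM per kb in control libraries, and CALR and JCHAIN at the top (SD, n = 3 each). CALR stood at 489, 490.2 and 493 CPM per kb in OBF1 shRNA libraries, against 391, 412 and 391 CPM per kb in control libraries. CALR thus lay above JCHAIN in OBF1 shRNA libraries, whereas the libraries of both genes overlapped in control cells. Next in OBF1 shRNA libraries came SEC61B (223 ± 5.13), HSP90B1 (214 ± 5.92), HSPA5 (194 ± 4.81) and CANX (179.8 ± 1.03 CPM per kb, SD, n = 3 each), of which SEC61B and HSP90B1 overlapped. In control libraries CANX came first of these at 242 ± 5.05 CPM per kb, followed by HSP90B1 (197 ± 4.52), SEC61B (179 ± 11.2) and HSPA5 (173 ± 5.04 CPM per kb, SD, n = 3 each), with SEC61B and HSPA5 overlapping. The summed level of the targeting and translocon role was 1992 ± 13.6 CPM in OBF1 shRNA libraries and 2202 ± 18.4 CPM in control libraries, and that of the plasma cell secretory genes 708 ± 7.51 CPM in OBF1 shRNA libraries and 812 ± 9.24 CPM in control libraries (SD, n = 3 each).

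Gene length moved with the fold change. Across all 12010 tested genes, Spearman's rho between the deposited gene length and the log2 fold change was -0.17, and across the 49 members it was -0.50, where the genes share the same 6 libraries and are no independent replicates. The median log2 fold change of all tested genes was 0.14 in the shortest of 5 length groups of like size and -0.11 in the longest, and that of the members in the same groups was 0.05 (11 genes) and -0.53 (10 genes). Short subunits such as SEC61B, SSR4 and SPCS1 were among the higher members, and long transcripts such as ATF6, SEL1L and EDEM1 among the lower. Other members went against this trend: JCHAIN (1457 bases), DERL2 (1124) and MANF (939) were short and lower. ERO1B, with the strongest increase, was 5347 bases long. When the median of all genes in the same length group was subtracted, the median of the members was -0.19, with 16 members above 0 and 33 below, and 0 of the called members changed sign. The part of length in the differences between subunits of 1 complex was not tested.

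**Figure D5:**
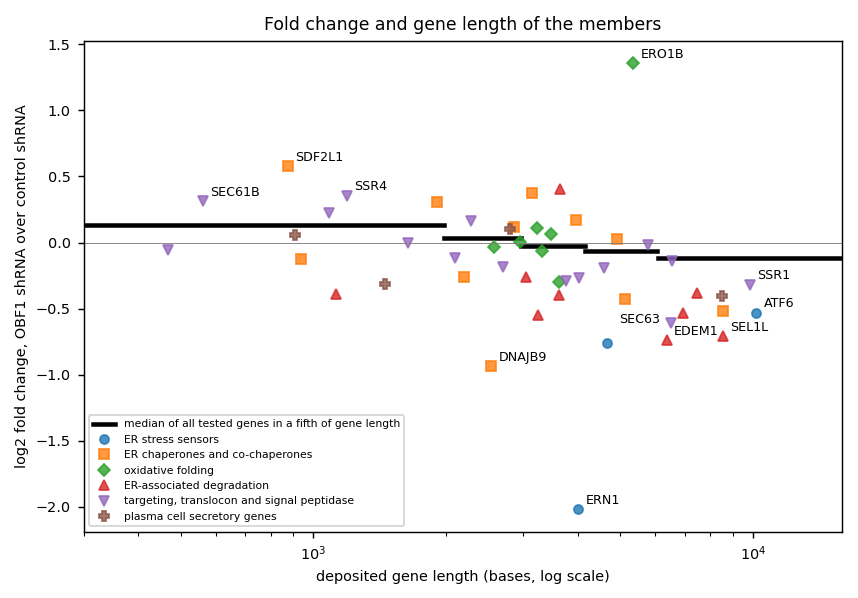
Log2 fold change of OBF1 shRNA over control shRNA against the deposited gene length in bases (log axis) for the 49 tested members, with symbols by role and black bars at the median of all tested genes in each of 5 groups of gene length. The bars step down with length, from 0.14 to -0.11; ERN1 and DNAJB9 lie far below their bars and ERO1B far above.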

How the data were processed

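RNA was measured in 6 libraries of Raji cells, 3 with OBF1 shRNA and 3 with control shRNA, prepared as stranded mRNA libraries, per the labels' protocols. The authors deposited raw read counts per gene, in 1 table that also holds each gene's length. Builds named in the submitters' processing notes are hg19 and mm9. The sources used here do not give the aligner, counter, annotation, strand setting or handling of overlapping genes. Titles of the samples gave group and replicate, and all 6 count columns were used.

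The 50 genes and the pathway lists were chosen with earlier results of these data known. Symbols came from RefSeq identifiers (GRCh38.p14), which matched 23308 of 23459 rows. The 151 rows without a symbol held 0.115% to 0.138% of counts and stayed in the tests. In R 4.3.3, edgeR 4.0.16 filtered genes (filterByExpr, min.count 10, min.total.count 15), scaled by TMM and compared the groups on all genes by the quasi-likelihood F test with no covariate and Benjamini-Hochberg adjustment (threshold 0.05). The standard error is the log2 fold change divided by the square root of F. The common biological coefficient of variation was 0.0269. Promoter windows came from RefSeq (GRCh38.p14) and were not matched to the authors' build. The script for the tests was checked on counts simulated with the common coefficient of variation. There, 50 genes each were changed 1.25-fold, 1.5-fold, 2-fold and 4-fold. It recovered 80%, 94%, 98% and 100% of them, and 6.53% of its calls were false. Far fewer genes changed there than were called in the real libraries, a setting that the check does not cover.

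All 50 genes could be named. Values in every library were given for called members changed at least 1.5-fold, for XBP1, ATF4 and POU2AF1, and, where a role had fewer than 2 such members, for its 2 members with the smallest p. ATF6, SDF2L1 and DERL3 are ends of their role's range, and HSPA5 and CALR were added after their values were seen. From each pathway list up to 4 called genes with the smallest p and a mean of at least 5 CPM were named; RTCB, TRAF2, PPP1R15A, PPP1R15B, MBTPS1, MBTPS2, EIF2S1, VCP, SRPRA and SEC61A2 were added after their values were seen. Alternatives were DESeq2 1.42.0, limma-voom (limma 3.58.1), other size factors, other filters, a replicate block, leaving out each library and, chosen after the data were seen, subtraction of the medians of 5 length groups. Pairs of libraries of 1 group differed by a chi-square per degree of freedom of 1.84 to 3.17, so none looked like 1 library deposited again. The number of libraries and the counting error limit precision. Features of the proteins were not analysed here.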

Additional observations from a re-analysis of the deposited data

How the results depend on the processing

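Of the 49 tested members, 49 kept direction and call with limma-voom, with a filter of 1 CPM in 3 libraries and with the replicate block. Replicate numbers were not treated as pairs in the main fit. Same-numbered libraries deviated together with correlations of 0.01, -0.12 and -0.06, and those with different numbers with -0.05 to 0.11. With 3 libraries per group, such values cannot show whether same-numbered libraries were handled together. The replicate block gave 8759 calls over all genes against 9058 without it. With library sizes alone the calls became 9 members higher, 1 oxidative folding gene higher and 4 lower, 0 plasma cell secretory genes higher and 13 other regulators and effectors called, and the member median was -0.25. There HYOU1 (-0.0849), PDIA4 (-0.102), PDIA6 (-0.0476), FKBP11 (-0.0034) and MZB1 (-0.0560) changed sign. PDIA4 also did so with upper-quartile factors (-0.0128), and SEC11A with DESeq2 (0.0049), RLE factors (0.00089) and no low-count filter (0.0027). Library sizes alone moved every gene by about the same amount; the cause of the other sign changes, all in genes not called, was not tested. Leaving out each library in turn moved PDIA4 between -0.0087 and 0.0219, SSR2 between -0.0442 and 0.0108, and SEC11A between -0.0219 and 0.0415, none of them called. It left the member counts at 13 to 14 higher and 27 lower, and all genes at 8632 to 8974 calls. Subtracting the medians of 5 length groups gave a member median of -0.19. ERSE letters were in 4 members within 150 bases before the start and in 13 with 1 mismatch allowed (28.9%, against 2.77% of tested genes). Counting error and 3 libraries per group limit low genes such as CREB3L2 and ELL2 most, and 14 members overlap another gene in the annotation. The neighbours of SEC61A1, SYVN1 and SPCS1 had log2 fold changes of 0.09, 0.03 and 0.03. Whether overlap adds to the change of any member was not tested.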
